A study of Mus musculus with 18 samples.

Results

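RNA sequencing of 3 brain regions was used to follow 8 genes of antigen presentation and the interferon response in mice lacking Pcm1, a scaffold protein of centriolar satellites. The genes were B2m, H2-K1, H2-D1, Tap1, Psmb8, Cd74, Irf7 and Ifit3. They were chosen by name out of 38561 genes counted, and all 8 were among the 17545 genes for which some library held 10 counts or more. The animals were adult Pcm1-/- mice (PCM1 KO in the labels) and WT littermates of the strain background C57 Bl6J, and no treatment is given. The mutant allele is a gene trap made in embryonic stem cells, and its carriers had been crossed to C57BL/6J over 3 generations or more. Frontal cortex, striatum and hippocampus were taken from 3 mice of each genotype, so that the 18 libraries came from 6 mice. The WT mice are called A, B and C and the Pcm1-/- mice D, E and F, with each mouse identified by the sample number in the deposited file names.

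Within each genotype, libraries of the same mouse deviated together between regions, with a median correlation of 0.377 for WT and 0.232 for Pcm1-/- against -0.175 and -0.106 for libraries of different mice. Mice B and E carried reads of the Y-linked gene Ddx3y in all 3 regions and the other 4 mice did not exceed 3 such reads, so each genotype held 1 male and 2 females. Total counts on genes lay between 24950537 and 33405081 per library. Pcm1 itself had 3425 to 4919 reads in every WT library and 313 to 520 in every Pcm1-/- library, with log2 fold changes of -3.46 in frontal cortex, -3.29 in striatum and -3.51 in hippocampus. Genotype labels and Pcm1 reads thus matched in all 18 libraries.

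Cells show fragments of their own proteins on MHC class I molecules, which are made of a heavy chain such as H2-K1 or H2-D1 and the shared light chain B2m. The immunoproteasome subunit Psmb8 helps to cut the peptides, and Tap1 forms one side of the transporter that carries them into the endoplasmic reticulum. Cd74, the invariant chain, belongs to the class II pathway of professional antigen-presenting cells. Interferons bind surface receptors and act through Stat and Irf factors, of which Irf7 is the main amplifier of type I interferon production, and they induce class I genes along with antiviral genes such as Ifit3. In healthy brain parenchyma class I and interferon-induced genes are kept low, with microglia, endothelium and the brain borders as the usual sources.

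Because interferon acts on these genes through short promoter elements, the stretches before an annotated start that hold matching letters are shown first. They come from RefSeq windows on the GRCm38.p6 assembly, which covered 7 of the 8 genes and of which the 250 bases before the start were searched on both strands. The letters searched were GAAANNGAA (a core of the interferon-stimulated response element, ISRE, present in 7.13% of all 32851 windows), TTCNNNGAA (the gamma-activated site, GAS, 7.02%) and GGGNNTTCC (the enhancer A type of NF-kB letters, 4.98%). Capitals mark the matches. The windows of H2-D1, Psmb8 and Tap1 lie wholly within exons of the GENCODE annotation, so the 29 bases printed for H2-D1 and for Psmb8 are exonic and lie inside the gene counted, while the stretches of B2m, H2-K1 and Ifit3 hold no exonic base. The Ifit3 stretch carries its ISRE letters on the reverse strand.
B2m, chr2:122147528-122147576, plus strand: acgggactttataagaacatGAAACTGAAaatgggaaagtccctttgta
H2-K1, chr17:34000430-34000478, minus strand: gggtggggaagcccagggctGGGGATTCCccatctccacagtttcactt
H2-D1, chr17:35262903-35262931, plus strand: gggtggggaagcccagggctGGGGATTCC
Psmb8, chr17:34198078-34198106, plus strand: ccctattcagtcctccgctgTTCCCAGAA
Ifit3, chr19:34583354-34583455, plus strand: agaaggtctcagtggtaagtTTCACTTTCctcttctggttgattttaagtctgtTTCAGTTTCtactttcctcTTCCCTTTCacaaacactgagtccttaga

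The 29 bases printed for H2-D1 are the same letters as the first 29 printed for H2-K1. Ifit3 held 3 ISRE matches within 1 stretch, and B2m held 1. The windows of Tap1 and Irf7 held none of the 3 sets of letters. A match says only that these letters are present, and nothing here measured binding.

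The 8 genes spanned a wide range of levels, and their order was nearly the same in every library. Expressed as reads per kilobase of exon corrected for library size (RPKM), B2m averaged 134.5 over the 18 libraries, with a range of 90.31 to 294.5. H2-D1 followed at 17.55 (9.613 to 29.5) and H2-K1 at 10.45 (6.087 to 19.0). Cd74 averaged 6.858 and spread from 0.9744 to 19.02. Among the lower members, Ifit3 averaged 3.677 RPKM, Psmb8 0.993, Tap1 0.6546 and Irf7 0.589. B2m exceeded H2-D1, H2-D1 exceeded H2-K1, Ifit3 exceeded Psmb8 and Psmb8 exceeded Tap1 in 18 of 18 libraries. Neighbours whose order changed between libraries were H2-K1 and Cd74 (H2-K1 higher in 16 of 18), Cd74 and Ifit3 (15 of 18), and Tap1 and Irf7 (10 of 18). Between its highest and lowest library Cd74 differed 19.5-fold, and each of the other 7 genes between 2.66-fold and 3.26-fold.

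**Figure D1:**
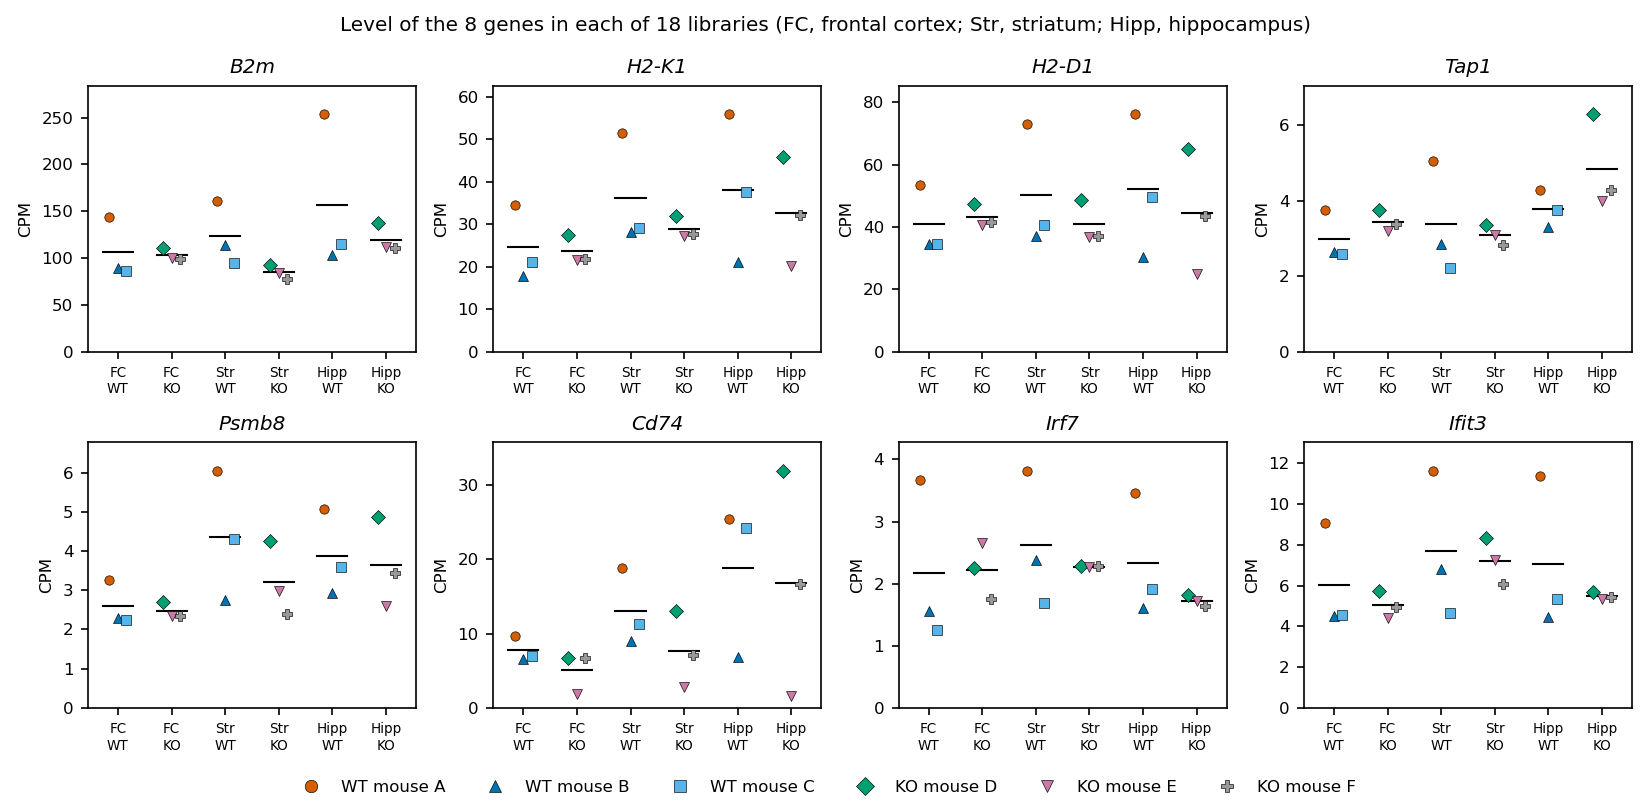
Level of each of the 8 genes in every library, in reads scaled to library size (CPM) on the vertical axis, by region and genotype, with 1 symbol per mouse. WT mouse A is the highest WT library for all 8 genes in all 3 regions, and Cd74 is lowest in Pcm1-/- mouse E.

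To ask whether loss of Pcm1 changed these genes, the genotypes were compared within each region with edgeR's quasi-likelihood test, with p-values adjusted over all 17545 genes. None of the 8 genes passed an adjusted p of 0.05 in any region. In frontal cortex 0 of 8 were called against 1.74% of all genes tested, in striatum 0 of 8 against 0.0285%, in hippocampus 0 of 8 against 0.0171%, and with the counts of the 3 regions summed per animal 0 of 8 against 1.39%. At these background shares, few or no calls were to be had among 8 genes in any comparison. At an unadjusted p under 0.05 the striatal B2m difference was the only one of the 8 genes in any region, and DESeq2 called the same gene in striatum alone. Of all genes 15.3%, 13.5% and 9.89% lay at that p in frontal cortex, striatum and hippocampus, and DESeq2 called 3.93%, 2.78% and 1.25%. The 1 of 8 in striatum was thus near the share of all genes at that p.

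The B2m light chain was the nearest to a genotype difference. In striatum B2m stood at 161, 114 and 94.4 CPM in WT mice A, B and C and at 92.6, 84.2 and 77.7 CPM in Pcm1-/- mice D, E and F. Every WT library thus lay above every Pcm1-/- library, although WT mouse C and Pcm1-/- mouse D were almost level. B2m was the only one of the 8 genes whose genotypes did not overlap in striatum, where 19.0% of all genes did not overlap. The log2 fold change was -0.54 ± 0.18 (SE, n = 3 and 3; adjusted p = 0.261 by edgeR, unadjusted p = 0.0159), and DESeq2 gave -0.54 with an adjusted p of 0.0439. Without mouse A the log2 fold change was -0.29 ± 0.11 (adjusted p = 0.405 by edgeR). All WT striatum libraries were on sequencing lane 5 and the Pcm1-/- striatum libraries on lanes 3 and 4, so genotype and lane cannot be told apart there.

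In the other 2 regions B2m did not keep that separation. In frontal cortex it measured 143, 89.5 and 85.7 CPM in mice A, B and C and 111, 99.4 and 98.5 CPM in mice D, E and F. In hippocampus it measured 253, 104 and 114 CPM in mice A, B and C against 138, 111 and 110 CPM in mice D, E and F. Mouse A was the highest of all 6 mice in both regions, while mice B and C lay below every Pcm1-/- library in frontal cortex, and in hippocampus mouse B lay below them and mouse C among them. The log2 fold changes were -0.05 ± 0.17 (adjusted p = 0.922) and -0.41 ± 0.32 (adjusted p = 0.69). In frontal cortex 0 of 8 genes had genotypes that did not overlap, against 21.3% of all genes, and in hippocampus 0 of 8 against 17.1%.

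The heavy chains H2-K1 and H2-D1, which carry the peptide groove, followed one another closely. In frontal cortex H2-K1 measured 34.6, 17.9 and 21.2 CPM in mice A, B and C and 27.5, 21.7 and 21.9 CPM in mice D, E and F. In striatum it measured 51.4, 28.1 and 29.2 CPM in the WT mice and 31.9, 27.3 and 27.6 CPM in the Pcm1-/- mice, and in hippocampus 55.8, 21.1 and 37.5 CPM against 45.7, 20.2 and 32.2 CPM. The genotypes overlapped in each region, with the highest value always in mouse A. Between genotypes the log2 fold change was -0.06 ± 0.22, -0.32 ± 0.22 and -0.24 ± 0.38 in frontal cortex, striatum and hippocampus (adjusted p = 0.928, 0.563 and 0.85).

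H2-D1 showed the same arrangement of mice. Its WT values were 53.4, 34.7 and 34.4 CPM in frontal cortex, 73.2, 37.0 and 40.6 CPM in striatum, and 76.1, 30.5 and 49.6 CPM in hippocampus for mice A, B and C. Mice D, E and F measured 47.5, 40.7 and 41.4 CPM, 48.8, 36.8 and 37.2 CPM, and 64.9, 24.8 and 43.5 CPM in the same regions. In frontal cortex mouse A exceeded all Pcm1-/- libraries and mice B and C fell below them all. The log2 fold changes were 0.07 ± 0.16, -0.29 ± 0.25 and -0.24 ± 0.40 (adjusted p = 0.874, 0.652 and 0.853). H2-K1 and H2-D1 share 9.63% and 12.8% of their 50-base stretches with other gene models, so that some of their reads could not be counted uniquely.

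The genes that prepare and carry peptides, Psmb8 and Tap1, held no call either. Tap1, the transporter subunit, lay between 2.21 and 5.04 CPM in WT striatum and between 2.82 and 3.36 CPM in Pcm1-/- striatum. In hippocampus Tap1 was highest in mouse D, at 6.28 CPM, with the other 5 mice between 3.30 and 4.28 CPM. Psmb8 lay between 2.25 and 6.05 CPM over all 18 libraries. The log2 fold changes of Tap1 were 0.19 ± 0.18, -0.12 ± 0.29 and 0.34 ± 0.22 and those of Psmb8 -0.08 ± 0.18, -0.44 ± 0.31 and -0.10 ± 0.29 in frontal cortex, striatum and hippocampus, with adjusted p between 0.582 and 0.922. Tap1 overlaps Psmb9, and Psmb8 overlaps Gm20496, on the opposite strand. B2m overlaps Patl2 and Irf7 overlaps Phrf1 in the same way. The kit keeps strand, but the counting setting is not given in the sources used here.

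Cd74, the class II invariant chain, was set apart by mouse E. In frontal cortex it measured 9.73, 6.54 and 7.04 CPM in mice A, B and C and 6.68, 1.88 and 6.68 CPM in mice D, E and F. In striatum mice A, B and C had 18.8, 9.01 and 11.3 CPM and mice D, E and F 13, 2.77 and 7.16 CPM, and in hippocampus the values were 25.4, 6.82 and 24.2 CPM against 31.9, 1.64 and 16.7 CPM. Mouse E was lowest of all 6 mice in every region, while the highest Pcm1-/- library of the hippocampus exceeded all WT libraries. Relative to the mean of mice D and F, mouse E stood at 0.282-fold in frontal cortex, 0.275-fold in striatum and 0.0672-fold in hippocampus. The log2 fold changes between genotypes were -0.63 ± 0.38, -0.77 ± 0.49 and -0.18 ± 0.83 (adjusted p = 0.485, 0.536 and 0.955).

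Some of the other class II genes shared the low level in mouse E. Counted over the 18 libraries with the group means taken out, Cd74 correlated with H2-Ab1 at r = 0.993, with H2-Aa at 0.976 and with Wdfy4, a gene of antigen cross-presentation in dendritic cells, at 0.953. H2-Aa, the class II alpha chain, stood at 0.210 CPM in the hippocampus of mouse E, from 5 reads, against 10.2 and 6.97 CPM in mice D and F. H2-DMa, a subunit of the peptide exchange factor, was instead highest there in mouse E, at 14.2 CPM against 11.9 and 12.4 CPM. Of 13 class II genes, mouse E was the lowest Pcm1-/- library for 9 in frontal cortex, 6 in striatum and 10 in hippocampus, with median log2 differences from mice D and F of -0.248, -0.0527 and -0.824, and of all genes it was lowest for 35.5%, 35.6% and 39.1%. Mouse E was the lowest Pcm1-/- library for 8, 5 and 7 of 8 border macrophage markers (medians -0.431, -0.293 and -0.874) and for 15, 7 and 13 of 16 microglial markers (medians -0.186, -0.0841 and -0.259) too, and the part of these cells was not tested. The libraries share mice and regions, so the correlations are descriptions without a test. In bulk tissue, fewer cells of a type and less RNA per cell cannot be told apart.

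The interferon response genes Irf7 and Ifit3 were highest in mouse A in every region. Irf7 measured 3.68, 1.56 and 1.25 CPM in frontal cortex, 3.82, 2.37 and 1.69 CPM in striatum and 3.47, 1.61 and 1.91 CPM in hippocampus of mice A, B and C. In mice D, E and F the values were 2.26, 2.66 and 1.76 CPM, 2.29, 2.26 and 2.28 CPM, and 1.81, 1.72 and 1.65 CPM. In frontal cortex all 3 Pcm1-/- libraries lay between mouse A above and mice B and C below. Irf7 had log2 fold changes of 0.03 ± 0.37, -0.21 ± 0.28 and -0.45 ± 0.31 (adjusted p = 0.984, 0.791 and 0.646).

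Ifit3, an antiviral gene that responds to type I interferon, gave the same picture with more reads. Its WT values were 9.07, 4.49 and 4.53 CPM in frontal cortex, 11.6, 6.81 and 4.63 CPM in striatum and 11.4, 4.46 and 5.34 CPM in hippocampus for mice A, B and C. The 9 Pcm1-/- libraries lay between 4.38 and 8.32 CPM. Mouse A was above all Pcm1-/- libraries of its region, and at least 1 other WT mouse was below all or all but 1 of them. Ifit3 had log2 fold changes of -0.27 ± 0.26, -0.09 ± 0.30 and -0.38 ± 0.33 (adjusted p = 0.676, 0.932 and 0.72). Ifit3 shares 51.2% of its 50-base stretches with other gene models, chiefly its near-identical neighbour Ifit3b, so its level counts only part of its reads.

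**Figure D2:**
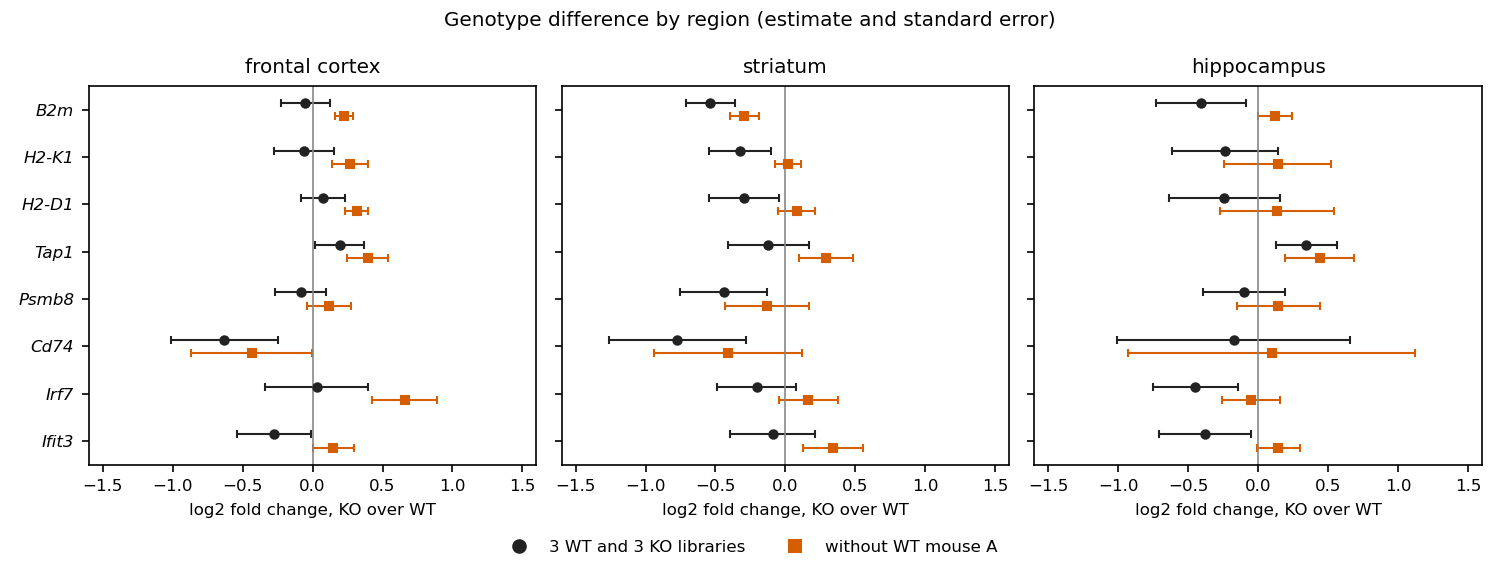
Log2 fold change between Pcm1-/- and WT with its standard error for each of the 8 genes in the 3 regions, from edgeR, with all 3 WT mice and with WT mouse A left out. Leaving out mouse A raised the number of positive values from 3 to 7 of 8 in frontal cortex, from 0 to 5 in striatum and from 1 to 7 in hippocampus, and no value passed an adjusted p of 0.05 either way.

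A test of whether the genotype difference itself varied between the regions called none of the 8 genes, each with an adjusted p of 1.0, against 0.0114% of all genes. With the counts of the 3 regions summed per animal the 8 genes had adjusted p between 0.487 and 0.785, and 1 of 8 was higher in Pcm1-/- mice. In hippocampus and frontal cortex replicates of the same number correlated positively between genotypes. A fit with the replicate number as a block called 9 genes in place of 3 in hippocampus and 665 in place of 306 in frontal cortex. It still called 0 of the 8.

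The sign of most of these differences rested on WT mouse A, and that of some in hippocampus on Pcm1-/- mouse E as well. With its libraries left out, a choice made after seeing the data, the log2 fold changes were positive for 7 of 8 genes in frontal cortex (median 0.247), 5 of 8 in striatum (median 0.0479) and 7 of 8 in hippocampus (median 0.137). None was called. In frontal cortex the values were 0.31 ± 0.08 for H2-D1 (adjusted p = 0.153), 0.23 ± 0.07 for B2m (adjusted p = 0.217) and 0.66 ± 0.23 for Irf7 (adjusted p = 0.319). In hippocampus B2m went from -0.41 to 0.12 ± 0.12. These fits rest on 2 WT mice against 3 Pcm1-/- mice. Without mouse E, likewise a choice made after seeing the data, positive values numbered 2 of 8 in frontal cortex, 0 in striatum and 5 in hippocampus. The medians were then -0.04, -0.255 and 0.0295, and none of the 8 genes was called.

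Differences between mice within a genotype made up 41.9% to 74.7% of the spread of log2 CPM of each of the 8 genes over the 18 libraries, where the median over 12870 genes was 8.94%. Region made up 1.33% to 33.5% of the spread of the 8 genes, against a median of 65.3% over the same genes, and genotype 1.36% to 12.7% against 3.2%. As a description, then, these genes varied chiefly from mouse to mouse, where the typical gene varied chiefly from region to region.

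The wider interferon program followed mouse A too. In a list of 79 interferon-stimulated genes, which holds 5 of the 8 genes (B2m, Tap1, Psmb8, Irf7 and Ifit3), mouse A was the highest WT library for 69 genes in frontal cortex, 62 in striatum and 71 in hippocampus. Its median log2 difference from mice B and C over that list was 0.617, 0.581 and 0.776. Of all 17545 genes tested, mouse A was highest of the WT mice for 6133, 5203 and 6111 in the same regions. Of 31 genes of the class I pathway, 5 of which are among the 8, mouse A was highest for 19, 22 and 22, and of 31 interferon signalling genes for 22, 19 and 22.

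Markers of microglia moved with mouse A in all 3 regions, and those of endothelium and border macrophages in frontal cortex and hippocampus. Mouse A was the highest WT library for 15, 14 and 13 of 16 microglial markers in frontal cortex, striatum and hippocampus, with a median log2 difference of 0.38, 0.43 and 0.447. The summed level of those 16 markers was 762 CPM in mouse A against 566 and 629 CPM in mice B and C in frontal cortex, 1121 against 746 and 977 CPM in striatum, and 911 against 585 and 711 CPM in hippocampus. In Pcm1-/- mice the same sum ranged from 497 to 580 CPM, from 685 to 801 CPM and from 559 to 659 CPM. Of 12 endothelial markers mouse A was the highest WT library for 11, 6 and 10, with median log2 differences of 0.37, 0.13 and 0.444, and their sum in frontal cortex was 364 CPM in mouse A against 271 and 264 CPM in mice B and C and 253 to 267 CPM in Pcm1-/- mice. Of 8 border macrophage markers it was highest for 6, 3 and 7, with medians of 0.482, 0.301 and 1.01, while in striatum mouse C was highest for 4 of them and had the highest sum, at 29.7 CPM against 25.04 CPM in mouse A. Meningeal fibroblast, oligodendrocyte and mural markers were high in mouse A in frontal cortex and hippocampus too, with mouse A the highest WT library for 7 and 6 of 7, 5 and 5 of 8, and 6 and 6 of 9, and median log2 differences of 0.472 and 0.629, 0.279 and 0.489, and 0.217 and 0.199. In striatum those medians were -0.223, -0.0319 and -0.0728. Markers of blood went the other way, with mouse A lowest of the WT mice for 6, 6 and 5 of 6. The part of these cells in the levels of the 8 genes was not tested.

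**Figure D3:**
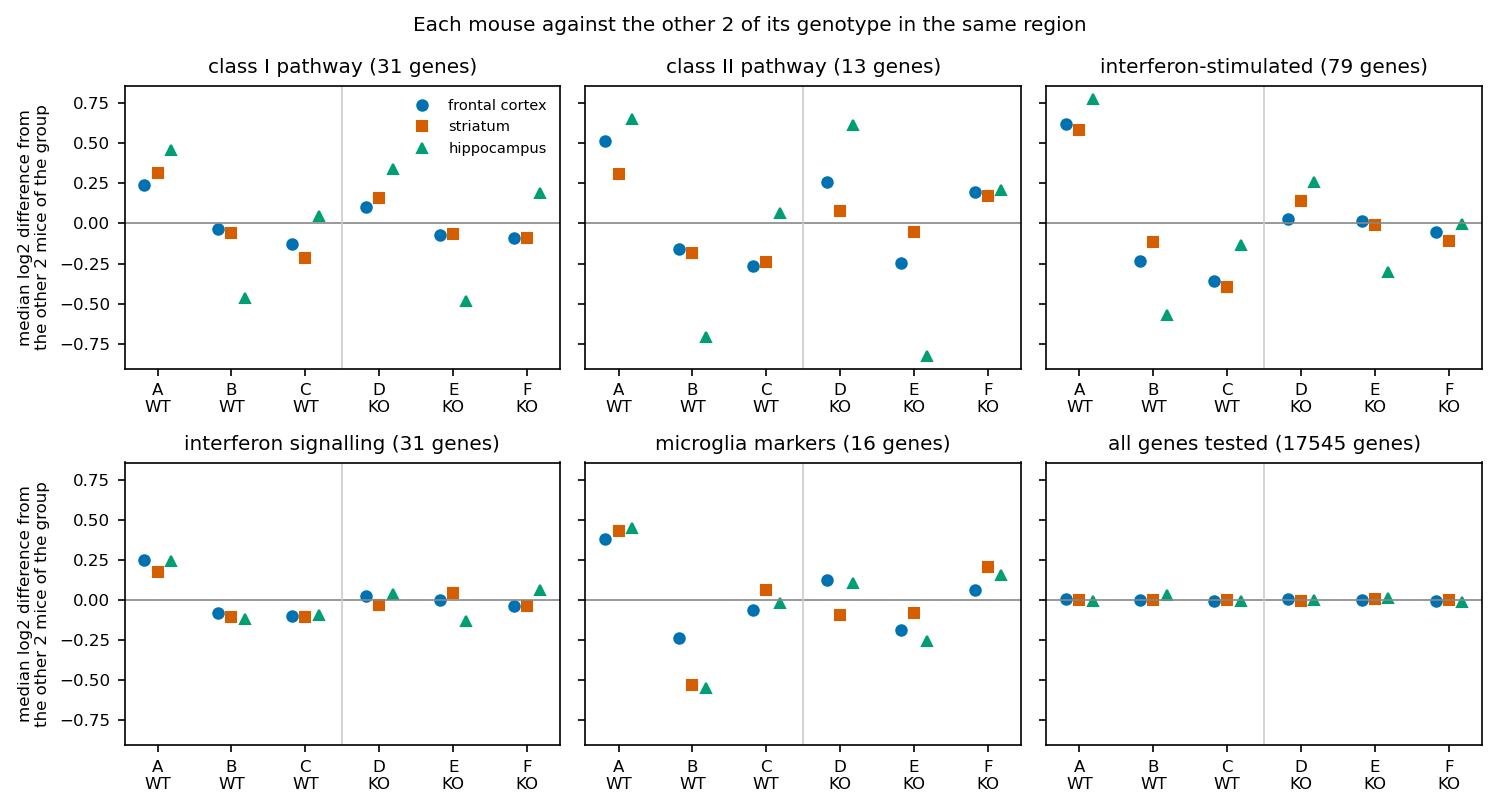
Median log2 difference of each mouse from the other 2 mice of its genotype, for the pathway and marker lists, in each region. The interferon-stimulated list of mouse A lies at 0.617, 0.581 and 0.776 in frontal cortex, striatum and hippocampus, and the same list in hippocampus lies at -0.57 and -0.137 in mice B and C and at 0.255, -0.304 and -0.00123 in mice D, E and F.

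In the hippocampus a second contrast between mice ran through some of the class I and class II genes of both genotypes. H2-K1 stood at 21.1 and 20.2 CPM in mice B and E and between 32.2 and 55.8 CPM in the other 4 mice, and H2-D1 at 30.5 and 24.8 CPM against 43.5 to 76.1 CPM. Cd74 stood at 6.82 and 1.64 CPM against 16.7 to 31.9 CPM. Mouse B was the lowest WT library for 26 of 31 class I genes and 12 of 13 class II genes, and mouse E the lowest Pcm1-/- library for 21 and 10. These are the mice with Y-linked reads. Outside the hippocampus mice B and E were the lowest pair for Cd74 in frontal cortex, where mouse B at 6.54 CPM lay close to the 6.68 CPM of mouse F, and for H2-D1 in striatum, at 37.0 and 36.8 CPM beside 37.2 CPM in mouse F. They were not the lowest pair for H2-K1 in either of those regions.

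Markers of several other cell types were low in the same hippocampal libraries. B and plasma cell markers had sums of 23.7 and 16.4 CPM in mice B and E and 66 to 127 CPM in the other 4 mice. Microglial markers summed to 585 and 559 CPM in mice B and E and to 647 to 911 CPM in the others. The summed level of oligodendrocyte markers was 5211 CPM in mouse B and 3942 CPM in mouse E, and between 5536 and 10360 CPM in the other 4 mice. Markers of border macrophages summed to 16.2 and 12.3 CPM in mice B and E and to between 19.2 and 31.7 CPM in the others. Neuronal markers ran the other way, at 8919 and 9788 CPM against 7415 to 7961 CPM. Mural markers were highest of their genotype in mice B and E, at 241.6 and 196 CPM, and astrocyte markers were highest in mouse E, at 7264 CPM. Endothelial markers summed to 225.5 and 217.3 CPM in mice B and E and to between 204.9 and 318.6 CPM in the others. Choroid plexus markers were lowest in mouse E at 223 CPM and reached 6314 CPM in mouse A. Sex and the cells held by each dissection cannot be told apart with 1 male per genotype, and their part in the class I levels was not tested.

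Described by the mice they followed, the 8 genes fell into overlapping sets. With group means taken out, H2-K1 and H2-D1 correlated at r = 0.977, and both lay near Stat3, a transcription factor of cytokine signalling, at 0.959 and 0.951. The genes nearest to B2m were Msn (0.964), Sfi1 (0.96) and Ifit3 (0.956), and those nearest to Ifit3 were Ifit3b (0.971), Ifit1 (0.958) and B2m. Irf7 lay nearest to Rtp4 (0.955), Trim30d (0.939) and Trappc5 (0.929). The nearest genes depended on the measure for all but Cd74. By rank (Spearman) correlation Irf7 lay nearest to Irf9 (0.917), Sfi1 (0.909) and Ppp1r18 (0.909), and Tap1 to Akna (0.924), Gbp3 (0.922) and Gbp2 (0.909). By the Pearson correlation used above, the other genes stood as follows. Tap1 lay nearest to the interferon-inducible GTPases Irgm1 (0.891) and Iigp1 (0.878) and to Trim25 (0.855), and Psmb8 to H2-D1 (0.903), Pdyn (0.901) and Kbtbd11 (0.901).

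Without mouse A some of these correlations were higher and some lower. Over the 15 libraries of the other 5 mice, H2-K1 and H2-D1 correlated at 0.964, B2m and Tap1 at 0.95 (from 0.755 over 18 libraries), and Cd74 and H2-D1 at 0.905 (from 0.804). Irf7 and Ifit3, which correlated at 0.887 over 18 libraries, correlated at 0.346 over 15. Irf7 correlated with H2-K1 at 0.147 there and with H2-D1 at 0.14, from 0.721 and 0.661. All the libraries of a mouse enter together, so neither set of values is over independent points.

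**Figure D4:**
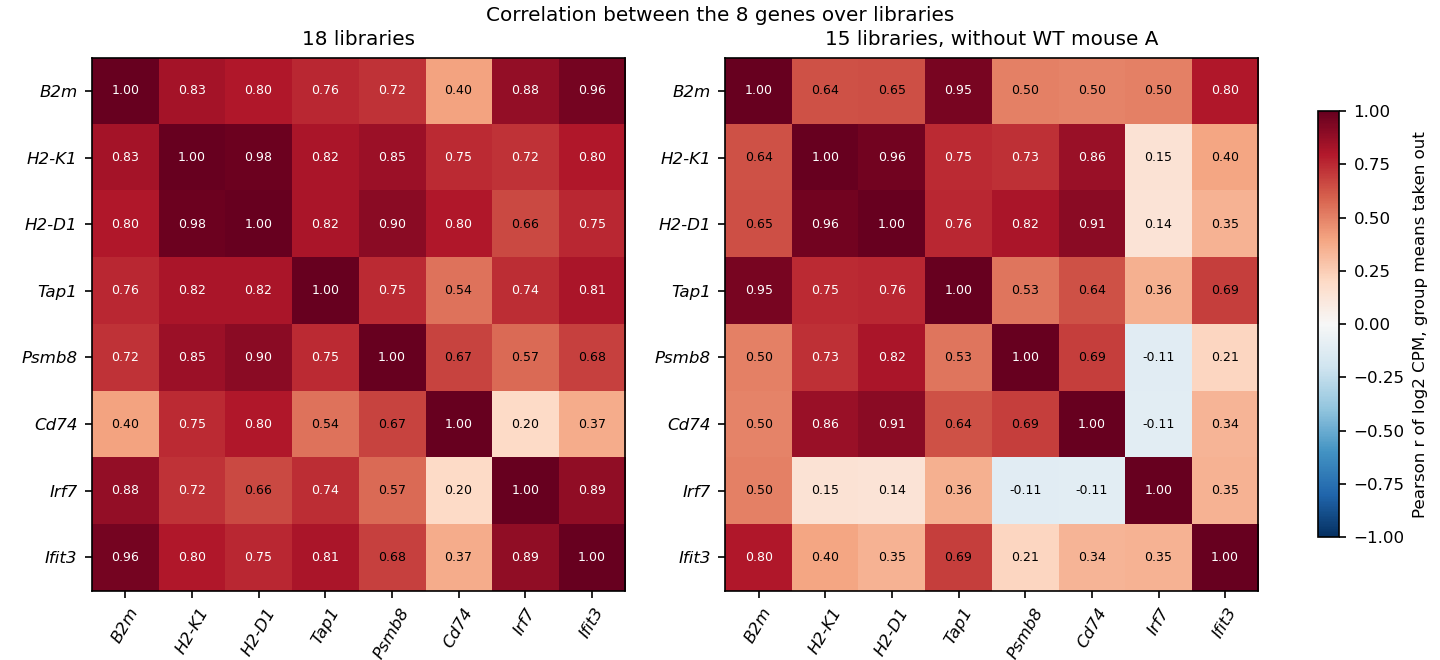
Pearson correlation of log2 CPM between the 8 genes with the 6 group means taken out, over all 18 libraries and over the 15 libraries without WT mouse A. The pair of Irf7 and Ifit3 goes from 0.887 to 0.346, and the pair of H2-K1 and H2-D1 from 0.977 to 0.964.

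Between regions the calls depended on whether the animal was taken into account. Among WT mice 0 of 8 genes were called between striatum and frontal cortex, between hippocampus and frontal cortex and between striatum and hippocampus, where 41.5%, 29.8% and 29.2% of all genes were called. All 8 were higher in striatum and in hippocampus than in frontal cortex by their fitted values. With the animal as a block, since the regions came from the same mice, Psmb8 (0.72 ± 0.16, adjusted p = 0.00647) and H2-K1 (0.57 ± 0.13, adjusted p = 0.00676) were called between striatum and frontal cortex, 2 of 8 against 48.1% of all genes in that fit. Between hippocampus and frontal cortex the same block called 4 of 8 against 37.0% of all genes, namely B2m (0.49 ± 0.13, adjusted p = 0.0178), H2-K1 (0.60 ± 0.13, adjusted p = 0.00767), Cd74 (1.15 ± 0.29, adjusted p = 0.0142) and Psmb8 (0.56, adjusted p = 0.0281). The 2 contrasts share the frontal cortex libraries. Without the block, 8 of 16 microglial and 8 of 8 oligodendrocyte markers were called higher in WT striatum than in frontal cortex (medians 0.527 and 2.07). In WT hippocampus 0 of 16 and 8 of 8 were (medians 0.0581 and 1.75). Of 12 endothelial markers none was called higher in either region. The part of these cells in the region differences was not tested.

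Among Pcm1-/- mice 2 of 8 genes were called between striatum and frontal cortex, where 54.3% of all genes were. Ifit3 was higher in striatum by 0.53 ± 0.14 on the log2 scale (adjusted p = 0.00844) and B2m was lower at -0.28 ± 0.10 (adjusted p = 0.0316). Between hippocampus and frontal cortex Tap1 alone was called (0.49 ± 0.18, adjusted p = 0.0467), against 41.5% of all genes. With the animal as a block 5 of 8 were called there against 43.9% of all genes, namely Cd74 (1.46 ± 0.34, adjusted p = 0.00778), B2m (0.21, adjusted p = 0.014), Tap1 (0.48, adjusted p = 0.0219), Psmb8 (0.54, adjusted p = 0.038) and H2-K1 (0.42, adjusted p = 0.0496).

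Between striatum and hippocampus of the Pcm1-/- mice 3 of 8 genes were called, against 45.0% of all genes. B2m was lower in striatum at -0.49 ± 0.10 (adjusted p = 0.00178) and Tap1 at -0.64 ± 0.18 (adjusted p = 0.0137), and Ifit3 was higher at 0.41 ± 0.14 (adjusted p = 0.0351). In these mice Tap1 and B2m thus stood higher in hippocampus than in striatum, while Ifit3 stood higher in striatum than in either other region. Without mouse E, a choice made after seeing the data, the calls between striatum and hippocampus were Cd74 (-1.25, adjusted p = 0.0101), Tap1 and B2m, and Ifit3 was no longer called (adjusted p = 0.0782). Between hippocampus and frontal cortex they were then Cd74 (1.85, adjusted p = 0.00169) and H2-K1 (0.65, adjusted p = 0.0117) in place of Tap1, and between striatum and frontal cortex Ifit3 alone.

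Among the other genes of these pathways, the class I-like gene H2-Bl rose in the frontal cortex of Pcm1-/- mice. Of the 31 class I pathway genes tested, H2-Bl and H2-T3, both outside the classical K and D loci, were past the threshold with higher values and none with lower, beside 1.41% of all genes called higher there. H2-T3 reached the filter of 10 counts only through the Pcm1-/- libraries of frontal cortex, where it is high, and had at most 1 read in any WT library, so it had to differ, and it is given below as a description and not counted as a call. Markers of striatum were higher in the same frontal cortex libraries, with 2 of 9 called higher (median 0.376) and sums of 261 to 293 CPM in Pcm1-/- against 206 to 228 CPM in WT mice. Their part in these class I levels was not tested. By edgeR H2-Bl differed between striatum and frontal cortex by -0.09 ± 0.55 in WT mice (adjusted p = 0.911). In Pcm1-/- mice it differed by 0.59 ± 0.34 (adjusted p = 0.173). H2-T3 had fewer reads in Pcm1-/- striatum than in Pcm1-/- frontal cortex, as given below. The median log2 fold change of the class I list was 0.0356, beside -0.00657 over all genes. In striatum and hippocampus none of the 31 was called by edgeR, with medians of -0.189 and -0.133 (without mouse A 0.12 in frontal cortex, -0.00258 in striatum and 0.102 in hippocampus), and 3 and 2 of the 31 lay at an unadjusted p under 0.05, where 13.5% and 9.89% of all genes did. DESeq2 called 1 and 0 of them, beside 2.78% and 1.25% of all genes. In frontal cortex 6 of the 31 lay at an unadjusted p under 0.05, beside 15.3% of all genes.

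H2-Bl had few reads in WT mice. In frontal cortex it had 9, 9 and 6 reads in mice A, B and C and 52, 47 and 25 reads in mice D, E and F. In striatum it had 4, 15 and 4 reads against 49, 76 and 49, and in hippocampus 8, 4 and 7 reads against 8, 1 and 13. The genotypes did not overlap in frontal cortex or striatum and did overlap in hippocampus. In striatum the genotypes lay on different sequencing lanes. The log2 fold changes were 2.16 ± 0.33 (adjusted p = 0.0204), 2.84 ± 0.44 (adjusted p = 0.104) and 0.05 (adjusted p = 0.984), and 2.15 ± 0.24 over the sums per animal (adjusted p = 0.0247). The difference between regions had an unadjusted p of 0.00821 and an adjusted p of 0.618. In frontal cortex the call of H2-Bl was lost with the sequencing lane in the fit and without mouse A, B, D or E, with adjusted p of 0.0653, 0.0731, 0.122 and 0.0793, while its log2 fold change lay between 1.98 and 2.37 without any 1 library. Over the sums per animal the call was lost without any 1 mouse other than C, with adjusted p of 0.0554 to 0.166 and log2 fold changes of 1.98 to 2.37. DESeq2 gave no adjusted p for H2-Bl in frontal cortex. H2-Bl shares 9.4% of its 50-base stretches with other gene models.

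H2-T3 was nearly without reads in WT mice. In frontal cortex it had 0, 1 and 1 reads in mice A, B and C and 25, 10 and 11 in mice D, E and F, a ratio of 20.3 at equal depth with a counting interval of 5.32 to 173, which pools the reads of the 3 mice, covers counting error only and leaves out the spread between mice. In striatum it had 1 read in mouse A and none in mice B and C, against 2, 4 and 0 reads, a ratio of 5.74 (0.697 to 264). In hippocampus it had no reads in WT mice and 6, 2 and 6 reads in Pcm1-/- mice, at least 4.25-fold higher against a floor of 3 counts over the WT group. All 3 Pcm1-/- mice had more reads than any WT mouse in frontal cortex and hippocampus, and 2 of 3 did in striatum.

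**Figure D5:**
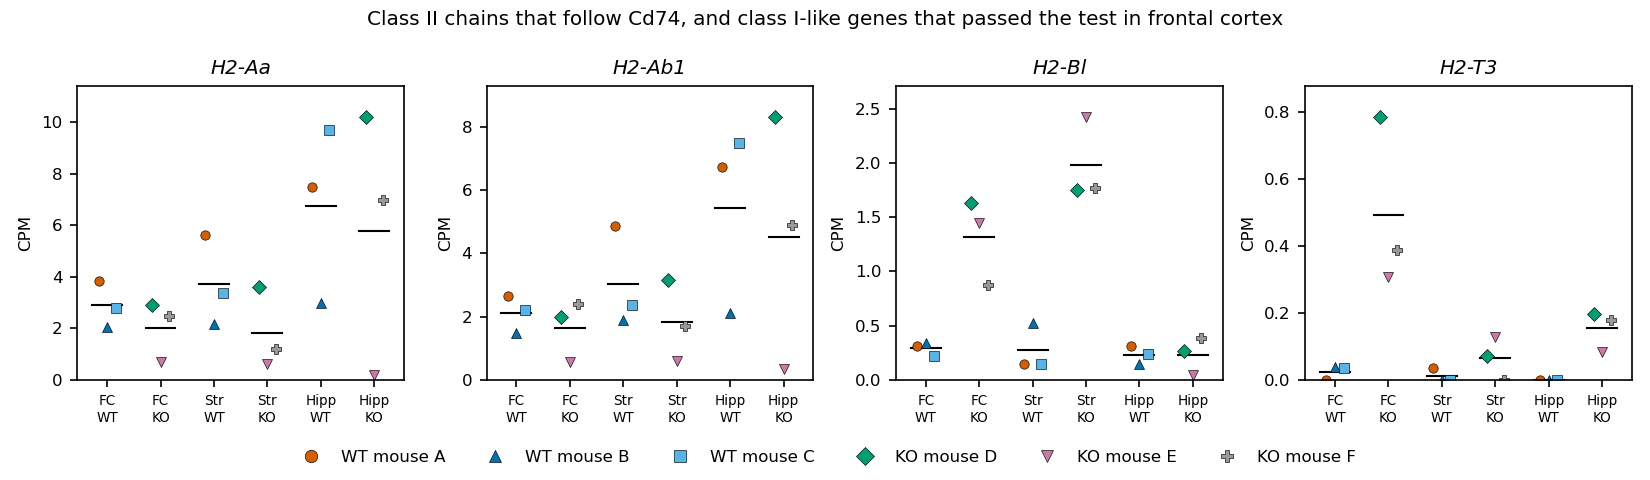
Levels of the class II genes H2-Aa and H2-Ab1 and of the class I-like genes H2-Bl and H2-T3 in every library, in CPM, by region and genotype with 1 symbol per mouse. H2-Bl is higher in all Pcm1-/- than in all WT libraries of frontal cortex and striatum and not of hippocampus, and H2-Aa is lowest in mouse E in each region.

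The interferon-stimulated list held no call by edgeR in any region. In frontal cortex 29 of its 79 genes had positive fold changes, with a median of -0.0836, and 4 lay at an unadjusted p under 0.05, where 15.3% of all genes did. In striatum 16 were positive (median -0.294), with 12 under 0.05 unadjusted and 1 call by DESeq2, and in hippocampus 11 were positive (median -0.259), with 4 under 0.05. Beside the 13.5% and 9.89% of all genes, the share of the list was near the background in striatum and below it in the other 2 regions. The all-gene medians in striatum and hippocampus were -0.00231 and -0.000335. Without mouse A the medians of the list were 0.191, -0.0315 and 0.0219, with 55, 36 and 43 positive genes and again no call by edgeR. The 16 microglial markers had medians of -0.261, -0.371 and -0.227 and no call by edgeR, with 7, 11 and 1 of them at an unadjusted p under 0.05 and 2, 4 and 0 called by DESeq2, beside 15.3%, 13.5% and 9.89% of all genes at that p and 3.93%, 2.78% and 1.25% called by DESeq2. Without mouse A the microglial medians were -0.134, -0.244 and -0.0571. Other cell types had negative values in the same comparisons, with all 8 oligodendrocyte markers (medians -0.275, -0.402 and -0.563) and all 6 blood markers (medians -1.25, -1.01 and -1.52) negative in each region. Of 9 mural cell markers 9, 8 and 8 were negative (medians -0.315, -0.184 and -0.238), and 1 was called lower by edgeR in frontal cortex. Endothelial markers were negative for 9, 10 and 11 of 12 (medians -0.266, -0.163 and -0.366). Border macrophage markers were negative for 7, 8 and 8 of 8 (medians -0.4, -0.546 and -0.813), and neither list held a call by edgeR. Of 6 B and plasma cell markers 2 were called lower in frontal cortex, and the medians were -1.21, -0.832 and 0.349, although their sums in frontal cortex overlapped, at 44.2 to 72.2 CPM in WT and 50.9 to 58.6 CPM in Pcm1-/- mice. The part of these cells in the lists was not tested.

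The class II list of 13 genes likewise had no call by edgeR. Its median log2 fold change was -0.394 in frontal cortex, -0.649 in striatum and -0.223 in hippocampus, without mouse A -0.258, -0.374 and -0.0544, and without mouse E -0.183, -0.368 and 0.068. Unadjusted p under 0.05 was reached by 0, 5 and 0 of the 13 genes, and DESeq2 called 0, 1 and 0, to be read against the same shares of all genes. The 31 interferon signalling genes had medians of -0.0947, -0.0844 and -0.158 (without mouse A -0.0209, -0.0553 and -0.0091), with 6, 7 and 1 genes at an unadjusted p under 0.05 (15.3%, 13.5% and 9.89% of all genes) and no call by edgeR or DESeq2. Transcripts of the interferons themselves were almost absent. Of 9 interferon genes counted, 7 had no read in any library and the highest count of the others was 1.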

How the data were processed

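Per the labels and the study's methods, libraries were made with a stranded mRNA kit, and the authors trimmed reads with Trim Galore and cutadapt, aligned them with STAR to the GRCm38 mouse genome and deposited raw counts of uniquely aligned reads per Ensembl gene from HTSeq. Tool versions and the strand setting of the counting are not given in the sources used here. Lines that name no gene were left out, which kept 86.8% to 89.2% of the reads of each library.

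The counts were fitted with edgeR 4.0.16 in R 4.3.3 (quasi-likelihood, TMM factors, genes with a highest count of 10 or more, Benjamini-Hochberg over 17545 genes, threshold 0.05, two-sided), per region for genotype and per genotype for region. DESeq2 1.42.0 was an alternative. CPM (counts scaled to a common library size) used TMM factors over the 18 libraries, and RPKM the union exon length. Standard errors were taken from the fold change and the F statistic. The fits were tested on simulated counts.

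The 8 genes and the lists were chosen with earlier results of these data known. Other genes named are those called within a list, the 3 genes of each list with the highest mean level, the 3 nearest by correlation to each of the 8, and near-identical copies. Mice were taken from the numbers in the deposited file names, since WT striatum numbers its replicates differently. Between genotypes, same-numbered libraries correlated at r = 0.124 to 0.609 in hippocampus, at 0.0308 to 0.373 in frontal cortex and at -0.346 to 0.276 in striatum. The means for libraries of other numbers were -0.164, -0.122 and 0.0448. In striatum the WT numbers stand for other mice, so that check could not show the same pairing there. Each library was 1 mouse's tissue, and p-values rest on 3 mice per genotype.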

Additional observations from a re-analysis of the deposited data

How the results depend on the processing

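Only 3 mice stand behind each genotype, and p-values measure their spread. Genotype differences of the 8 genes were recomputed in 375 alternatives, of which 41 changed sign, 26 of these without a WT library, and 1 passed the threshold. That was B2m in striatum with DESeq2, so the count there became 1. Lane 3 held only mouse A's library in frontal cortex, so lane and mouse cannot be told apart there. With lane in the fit of 18 libraries, frontal cortex gave 0.19 for B2m, 0.15 for H2-K1, 0.10 for Psmb8 and 0.02 for Ifit3, and with lane within the region 0.24, 0.28, 0.13 and 0.17. Beyond the alternatives' own construction (fewer samples, other genes tested), the cause was not tested.

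Without 1 library, the log2 fold changes in frontal cortex ranged from -0.19 to 0.23 for B2m, -0.24 to 0.27 for H2-K1, -0.03 to 0.31 for H2-D1, -0.18 to 0.11 for Psmb8, -0.25 to 0.66 for Irf7 and -0.44 to 0.15 for Ifit3, each highest without mouse A. In striatum they ranged from -0.48 to 0.02 for H2-K1, -0.48 to 0.08 for H2-D1, -0.35 to 0.29 for Tap1, -0.44 to 0.16 for Irf7 and -0.35 to 0.34 for Ifit3, again highest without mouse A. In hippocampus they ranged from -0.64 to 0.12 for B2m, -0.57 to 0.14 for H2-K1, -0.63 to 0.13 for H2-D1, -0.38 to 0.14 for Psmb8 and -0.63 to 0.14 for Ifit3, highest without mouse A, and from -1.04 to 0.35 for Cd74, highest without mouse E. Over sums per animal the ranges were -0.50 to 0.02 for B2m, -0.44 to 0.12 for H2-K1, -0.35 to 0.18 for H2-D1, -0.43 to 0.03 for Psmb8, -1.07 to 0.05 for Cd74, -0.42 to 0.24 for Irf7 and -0.46 to 0.21 for Ifit3.

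Counts of all genes called moved more. In frontal cortex the 306 genes became 690 with DESeq2, 544 with no filter, 665 with the replicate block, 176 in the fit of 18 libraries, 95 with lane added to it and 29 with lane within the region, and 11 (without mouse D) to 825 (without mouse C) without 1 library. In striatum the 5 genes became 488 with DESeq2, 65 with no filter, 3 with the replicate block, 54 and 8 in the fit of 18 libraries without and with lane, and 2 to 5 without 1 library. In hippocampus the 3 genes became 220 with DESeq2, 9 with the replicate block, 205 and 160 in the fit of 18 libraries, and 1 to 11 without 1 library. Over sums per animal the 243 genes became 1198 with DESeq2 and 4 to 398 without 1 mouse. The 2 genes of the interaction became 94 with DESeq2, 0 with DESeq2 size factors, with the animal block, with lane and without mouse E, 1 without mouse A, and 0 to 22 without 1 library.

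Of the 8 genes, the calls between WT regions became 2 (striatum against frontal cortex) and 4 (hippocampus against frontal cortex) with the animal block, 1 for the latter with no filter, and 0 to 1 for each of the 3 contrasts without 1 library. All genes called between WT hippocampus and frontal cortex fell to 2792 without mouse A. In Pcm1-/- mice, where the replicate block and the animal block are the same fit, hippocampus against frontal cortex gave 5 with the block, 0 with DESeq2, 2 without mouse E and 0 to 4 without 1 library. Striatum against frontal cortex gave 1 without mouse E and 1 to 2 without 1 library, and striatum against hippocampus 1 to 4 without 1 library. The block changed no other call of the 8 genes.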

Other observations

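None of the 3 most abundant genes of each pathway list was called between genotypes by edgeR, and DESeq2 called B2m in striatum. In the class I list these were Canx, Calr and Pdia3, chaperones of the endoplasmic reticulum that help fold the heavy chain, with means of 468, 355 and 211 CPM. Canx differed by 0.16 ± 0.05 in frontal cortex on the log2 scale (adjusted p = 0.214 by edgeR), Calr by -0.01 ± 0.09 (adjusted p = 0.972) and Pdia3 by 0.04 ± 0.08 (adjusted p = 0.886). In the class II list they were the lysosomal proteases Lgmn and Ctss, at 125 and 101 CPM, and the peptide-exchange subunit H2-DMa at 13.3 CPM. In striatum Lgmn differed by -0.28 ± 0.08 (adjusted p = 0.22) and Ctss by -0.46 ± 0.15 (adjusted p = 0.26).

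H2-DMa, which acts beside Cd74 in class II loading, went with positive values in striatum and hippocampus, at 0.21 ± 0.11 (adjusted p = 0.439) and 0.26 ± 0.15 (adjusted p = 0.61). Among interferon-stimulated genes the most abundant were the RNA editing enzyme Adar at 170 CPM, B2m at 116 CPM and Znfx1 at 98.3 CPM. Adar and Znfx1 differed by at most 0.12 on the log2 scale in any region, with adjusted p between 0.528 and 1.0. Of the signalling genes Jak1, the kinase of the interferon receptors, averaged 210 CPM and differed by -0.02 ± 0.06 in frontal cortex (adjusted p = 0.928).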
